A study of Rattus norvegicus with 44 samples.

Results

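The 6 genes described are Id1, Id2, Id3 and Id4, which encode the inhibitor of DNA binding (Id) proteins, and Smad6 and Smad7, which encode the inhibitory SMADs. They were chosen as a named group, with earlier results of these data known, as classic transcriptional targets of bone morphogenetic protein (BMP) and transforming growth factor beta (TGF-beta) signalling, and were 6 of the 18347 genes listed in RNA-seq of the rat dentate gyrus. The normalized values of rows with the same gene identifier were added, which changed only Id2, listed on 2 rows. All 6 genes had a mean of at least 5 and were among the 15598 genes tested. Each library came from the dentate gyrus of 1 male Fischer 344 (F344) rat, with no transgene or deletion in any group. The young group (YNG, n = 10) was collected at 6 months of age and is listed with vehicle in the authors' sample attributes. The other groups began treatment at 12 months of age and were collected at about 18 months, after vehicle (AV, n = 12), ABT-263 at 12 mg/kg (AA, n = 11) or dasatinib at 1.2 mg/kg with quercetin at 12 mg/kg (ADQ, n = 11). ABT-263, also called navitoclax, blocks anti-apoptotic members of the BCL2 family, dasatinib is a tyrosine kinase inhibitor and quercetin is a plant flavonoid, and all are used as senolytics, agents meant to remove senescent cells. Doses were given by gavage for 5 days in each of 8 cycles with 2 weeks between them, and a last round followed the behavioral tests. Age and drug were thus read in whole tissue of 1 sex and 1 strain, in which fewer cells of a type and less RNA per cell cannot be told apart.

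BMPs and TGF-betas bind paired type I and type II receptor kinases, which phosphorylate SMAD proteins that then move to the nucleus and bind DNA. Id proteins carry a helix-loop-helix domain but no DNA-binding region, so they hold E proteins and their partners in dimers that cannot bind DNA. SMAD6 and SMAD7 bind the receptors and block further SMAD phosphorylation, which makes their induction a negative feedback loop. In the brain, Id genes are known for keeping neural stem cells undifferentiated, and Id1 and Id3 are also well known in endothelial cells of growing vessels.

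Values are the authors' normalized read counts, scaled by DESeq2's median-ratio method, and differences are on the log2(value + 1) scale. This scale understates the change of low genes, and Smad6 was the only low one, at an estimated 6 to 93 reads per library (median 18). Estimated reads were 62 to 522 for Id1, 329 to 1680 for Id3, 180 to 798 for Id4 and 174 to 723 for Smad7, in libraries of 10166556 to 24328321 estimated reads. A gene was called different at an unadjusted p below 0.05 in a limma fit over all tested genes, the threshold the study used, and the Benjamini-Hochberg adjusted p over those genes is given beside it.

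Rats and libraries were not uniform within groups. By rat number the animals fell into 2 series, a (22 rats) and b (22 rats), with every group in both. The unplaced gene AABR07000398.1 took at most 1.596% of a library's values in series a, and in series b it took between 1.711 and 11.1%, while the labels name no batch. AV rat 3989 had the highest summed level of endothelial, astrocyte, microglia, oligodendrocyte and red blood cell markers of the 44 rats. It was also rich in CA1 markers (Wfs1 16570, against a mean of 5631) and poor in granule cell markers (Prox1 973, against a mean of 2515). AA rat 4107 had the lowest summed level of dentate granule cell markers (4779, against a median of 16736) and the highest of CA1 pyramidal cell markers (42737, against a median of 8589). Of the defining granule cell markers, C1ql2 was the most abundant (mean 5952) and Lct was under the minimum of 5. By these markers the libraries of rats 4107 and 3989 fit the label dentate gyrus least, being poorest in granule cell and richest in CA1 scores of the 44. Where leaving out either rat changed a call of one of the 6 genes, the value without it is given.

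Id1 was higher in the older vehicle rats than in the young rats and lower in dasatinib and quercetin rats than in older vehicle rats. In YNG rats Id1 ranged from 69.2 to 180.3 around a median of 112. In AV rats it ranged from 108 to 492 around a median of 190.1, with the highest value in rat 3989. The next highest AV rat was at 271. Id1 ranged from 105 to 239.8 in AA (median 175) and from 105 to 190.2 in ADQ (median 143). The groups overlapped, most of all AA with AV and ADQ with YNG. Of the AV rats, 9 of 12 were above every YNG rat. Of the ADQ rats, 1 of 11 was above the AV median and 3 were below the lowest AV rat. The group means (± SD) were 123 ± 36 for YNG rats, 220.4 ± 96.3 for AV rats, 171 ± 36.8 for AA rats and 140.0 ± 30.4 for ADQ rats.

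AV exceeded YNG by 0.80 (SE 0.170) for Id1, a 1.74-fold difference with a 95% interval of 1.38 to 2.21 (limma, p = 2.26e-05, adjusted p = 0.00569). By p this ranked Id1 at position 62 of the 15598 genes. ADQ was below AV by -0.59 (SE 0.165), at 0.666 of the AV level with an interval of 0.529 to 0.840 (limma, p = 0.000943, adjusted p = 0.197). Both calls held without rat 3989, at 0.69 (limma, p = 4.7e-05) and -0.47 (limma, p = 0.00276). They also held within each rat series, where AV against YNG was 0.80 in both and ADQ against AV was -0.62 in series a and -0.56 in series b. In order of level, AV, AA, ADQ and YNG followed each other, and no neighboring pair in that order passed the threshold (AA against AV -0.30, limma p = 0.0778; AA against ADQ 0.29, limma p = 0.0966; ADQ against YNG 0.22, limma p = 0.218). With the library total as a term ADQ against YNG was 0.40 and passed (limma, p = 0.036), and AA against ADQ passed with these groups fitted alone (limma, p = 0.0396). Without AA rat 4107 the AA against AV difference was -0.35 and passed (limma, p = 0.043), and without rat 3989 it was -0.18 (limma, p = 0.221). AA remained above YNG by 0.50 (limma, p = 0.00567, adjusted p = 0.0695). This call was lost within series a (0.43; limma, p = 0.138) and held within series b (0.57; limma, p = 0.0133). The study itself picked out Id1 on these samples, so its direction is not independent evidence, and both contrasts rest on the same AV rats.

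Id3, whose roles overlap with those of Id1 in the developing brain and its vessels, was lower in ADQ than in AV, and its other differences missed the threshold. Id3 ranged from 495 to 1179.9 in YNG (median 791), from 636 to 1312 in AV (median 906), from 516 to 1239.6 in AA (median 828) and from 478 to 1066 in ADQ (median 662). The groups overlapped widely, yet 5 of 11 ADQ rats were below the lowest AV rat. ADQ was below AV by -0.41 (SE 0.136; limma, p = 0.00389, adjusted p = 0.284), or 0.751 of the AV level. The difference was -0.37 without rat 3989 (limma, p = 0.00978), -0.22 within series a (limma, p = 0.286) and -0.58 within series b (limma, p = 0.00189). The order was AV, AA, YNG and ADQ, and no neighbors in it passed the threshold. Unlike Id1, Id3 gave no call for AV against YNG (0.23, SE 0.139; limma, p = 0.104). That difference was 0.09 in series a (limma, p = 0.661) and passed in series b (0.43; limma, p = 0.0277). It also passed with the library total as a term (0.34; limma, p = 0.0189). Whether the age differences of Id1 and Id3 differ from each other was not tested.

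Id2, which is also expressed in mature neurons, followed another order, with ADQ first, then AA, AV and YNG. Its values ranged from 539.9 to 771 in YNG (median 634), from 382 to 1034 in AV (median 719), from 397 to 1064.5 in AA (median 738) and from 648 to 888 in ADQ (median 807). AV and AA rats spread below and above all YNG rats, while all 11 ADQ rats were above the YNG median and 7 were above every YNG rat. The only call for Id2 was ADQ against YNG, at 0.28 (SE 0.134; limma, p = 0.0394, adjusted p = 0.156), and it was lost when any 1 of 10 rats was left out. With the library total as a term it fell to 0.08 (limma, p = 0.534). AA against YNG, at 0.21 over all rats (limma, p = 0.12), was 0.30 without AA rat 4107 (limma, p = 0.02). Adding the library total to the fit brought it to 0.00093 (limma, p = 0.995). Neighbors in the order did not differ beyond their spread.

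Id4, known for its part in astrocyte and neural stem cell quiescence, gave no call in any comparison. It ranged from 271 to 428 in YNG (median 320.3), from 247 to 753 in AV (median 329), from 264 to 410.1 in AA (median 339) and from 262 to 374 in ADQ (median 333). The group medians lay close together, and the upper end of AV was rat 3989. The differences for Id4 ran from -0.17 (ADQ against AV, SE 0.115) to 0.14 (AV against YNG, SE 0.117). Without rat 3989 these were -0.07 (SE 0.094) and 0.04 (SE 0.096), and AA against AV turned from -0.09 to 0.008.

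Smad6, which acts mainly on BMP receptors, was higher in AV than in YNG at low levels throughout. It ranged from 5.0 to 26.1 in YNG (median 10.9), from 11.3 to 87.7 in AV (median 21), from 6.78 to 58.0 in AA (median 19.1) and from 11.2 to 28.1 in ADQ (median 15.3). All 12 AV rats were above the YNG median and 5 were above every YNG rat. All 11 ADQ rats were above that median too, without a call (ADQ against YNG 0.40; limma, p = 0.206). AV exceeded YNG by 1.01 (SE 0.304), or 2.02-fold with an interval of 1.32 to 3.08 (limma, p = 0.00174, adjusted p = 0.0618). Without rat 3989 this was 0.86 (limma, p = 0.00513), and by series it was 1.44 in a (limma, p = 0.00229) and 0.48 in b (limma, p = 0.258). ADQ was below AV by -0.61 (SE 0.296; limma, p = 0.044, adjusted p = 0.521), a call that did not hold without rat 3989 (-0.46; limma, p = 0.114). It was lost when any 1 of 12 rats was left out, in each series alone (-0.56 in a and -0.62 in b) and with the library total as a term (-0.56). AA against AV, at -0.43 over all rats (limma, p = 0.149), was -0.59 without AA rat 4107 (limma, p = 0.0465) and -0.28 without rat 3989 (limma, p = 0.332). The order of levels was AV, AA, ADQ and YNG, with no difference past the threshold between neighbors.

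Smad7, which blocks both TGF-beta and BMP receptors, was higher than in YNG in each of the 3 older groups. It ranged from 189 to 312 in YNG (median 265), from 228 to 682 in AV (median 340.0), from 243 to 472 in AA (median 298) and from 247 to 372 in ADQ (median 296). All groups overlapped, with 8 of 12 AV rats above every YNG rat. AV exceeded YNG by 0.45 (SE 0.128; limma, p = 0.000877, adjusted p = 0.042), AA by 0.32 (SE 0.130; limma, p = 0.0172, adjusted p = 0.109) and ADQ by 0.27 (SE 0.130; limma, p = 0.0443, adjusted p = 0.166). These comparisons share the YNG rats, and the ADQ call was lost when any 1 of 9 rats was left out. With the library total as a term the AA (0.26; limma, p = 0.0788) and ADQ (0.21; limma, p = 0.146) calls were both lost, and within series a neither passed (AA 0.27; limma, p = 0.137; ADQ 0.12; limma, p = 0.489). Without rat 3989 the AV difference was 0.37 (limma, p = 0.0023, adjusted p = 0.0814), so its adjusted call was lost. By series, AV against YNG was 0.64 in a (limma, p = 0.000748) and 0.30 in b (limma, p = 0.101). Neither drug group differed from AV past the threshold over all rats, at -0.13 for AA (SE 0.124; limma, p = 0.293) and -0.19 for ADQ (SE 0.124; limma, p = 0.144), and without rat 3989 these were -0.04 and -0.10. The direction turned between the rat series, as given in the closing section.

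**Figure D1:**
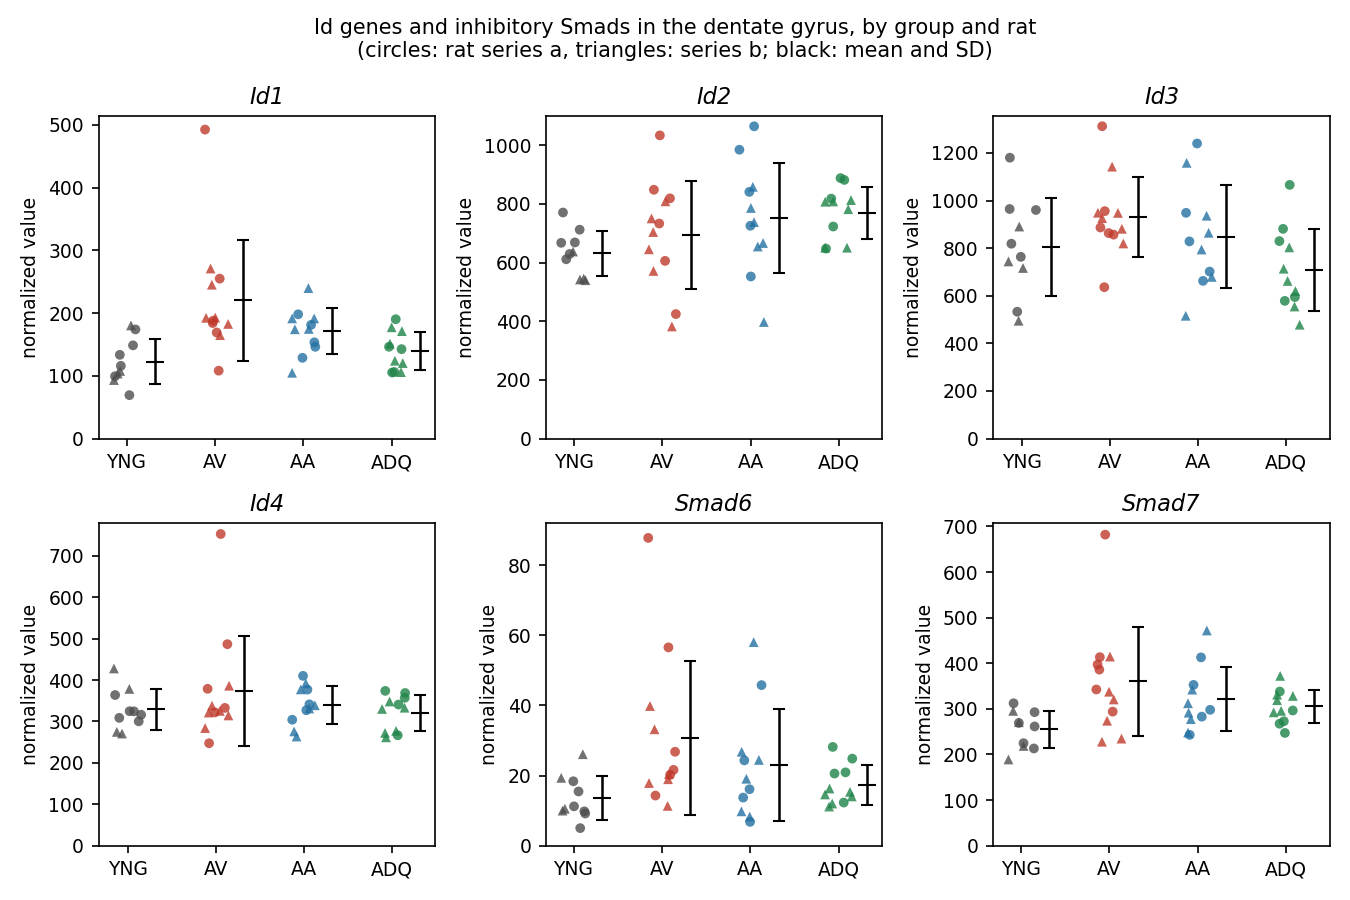
Normalized value (y axis, linear from 0) of each of the 6 genes in each rat, by group (x axis); circles are rat series a, triangles series b, and black marks give the mean and SD. Id1 lies highest in AV, up to 492 in rat 3989, and the ADQ values of Id1 end at 190.2.

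Over all comparisons, the members called were set against the share of tested genes called the same way. In AV against YNG, 3 members rose (Id1, Smad6 and Smad7) where 10.6% of tested genes were called higher, and 0 fell where 10.7% were called lower. After adjustment 2 of them (Id1 and Smad7) remained, against 1.81% of tested genes higher. In AA against YNG, 2 members rose (Id1 and Smad7) where 12.6% of genes were higher, 0 fell where 14.1% were lower, and 0 passed adjustment where 1.55% were higher. In ADQ against YNG, 2 members rose (Id2 and Smad7) where 13.5% were higher, 0 fell where 14.6% were lower, and 0 passed adjustment where 3.12% were higher. In this fit the drugs themselves were told apart from vehicle at far fewer genes. With the library total as a term, ADQ against AV had 1376 genes called, beside 1809, 1202 and 1161 in AV, AA and ADQ against YNG. In series b alone ADQ against AV had 1519, beside 984, 1928 and 1077 in the same order.

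In AA against AV, 0 members were called, where 1.4% of genes were higher and 3.1% lower by limma. Without AA rat 4107, Id1 and Smad6 were lower (limma, adjusted p = 0.974 for each), where 783 of all tested genes were called in either direction. Without AV rat 3989 neither passed (Id1 -0.185; limma, p = 0.221; Smad6 -0.278; limma, p = 0.332). In ADQ against AV, 3 members fell (Id1, Id3 and Smad6) where 5.9% of genes were lower, and 0 rose where 3.42% were higher. In AA against ADQ, 0 members were called where 2.13% were higher and 2.4% lower. By limma with adjustment, 0 of all tested genes passed in the comparisons among older groups, where 703 genes passed unadjusted in AA against AV (smallest adjusted p 0.526), 1454 when ADQ was set against AV (0.134) and 707 between AA and ADQ (0.981). The median log2 difference of the 6 members was 0.34 in AV against YNG and -0.30 in ADQ against AV, beside medians of all tested genes of -0.0017 and 0.0081.

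**Figure D2:**
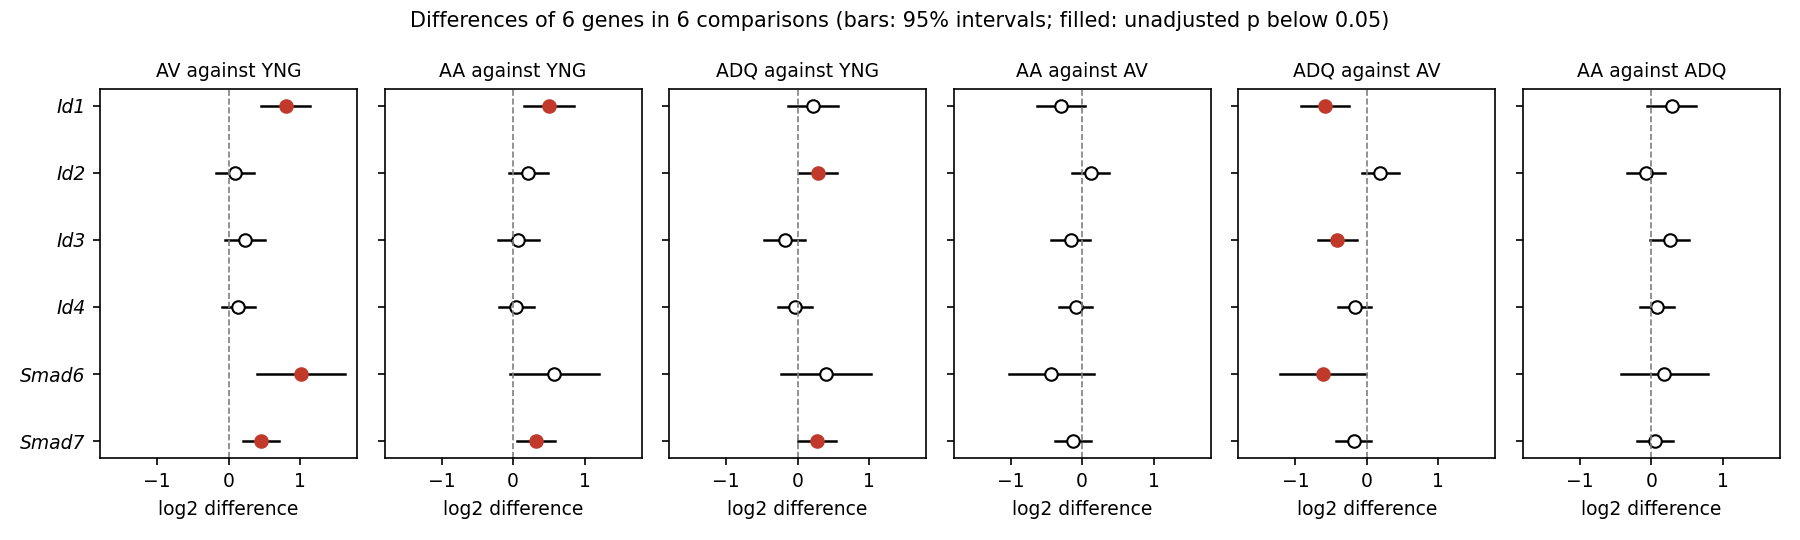
Log2 difference (x axis) of the 6 genes (y axis) in each of the 6 comparisons, with 95% intervals from limma; filled points have an unadjusted p below 0.05. Filled points lie to the right in the comparisons with YNG and to the left, for Id1, Id3 and Smad6, in ADQ against AV.

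Rat by rat, the members did not vary as 1 block. After subtracting group means, Id1 and Id3 rose and fell together over the 44 rats, with Pearson r = 0.729 (permutation p = 1e-05, the smallest that 100000 permutations can give; adjusted over 15 pairs, permutation p = 0.00015) and Spearman rho = 0.733 (adjusted permutation p = 0.00015). Without the rats farthest from the Id1 median (3989 and 4011) r was 0.699, and it was 0.818 in series a and 0.728 in series b. By group it was lowest for YNG (0.578) and highest for AV (0.953), with 0.820 for AA and 0.748 for ADQ.

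Smad6 varied with both of these genes and less evenly. For Id1 and Smad6 r was 0.605 (adjusted permutation p = 0.00015) and rho 0.438 (adjusted permutation p = 0.0142), falling to r = 0.495 without rats 3989 and 4011 and to 0.051 within ADQ. For Id3 and Smad6 r was 0.563 (adjusted permutation p = 0.00065) and rho 0.467 (adjusted permutation p = 0.0142), with r = 0.543 without AA rat 4069 and YNG rat V10. Id2 ran the other way from Id4, with r = -0.473 (adjusted permutation p = 0.0171) and rho = -0.448 (adjusted permutation p = 0.0142), or r = -0.556 without AA rat 4107 and AV rat 4572. Id4 with Smad6 (r = 0.452, adjusted permutation p = 0.0171; rho = 0.367, adjusted permutation p = 0.0533; r = 0.299 without rat 3989) and Id3 with Id4 (r = 0.328, adjusted permutation p = 0.0482; rho = 0.258, adjusted permutation p = 0.237) passed by Pearson's r only. The other 9 of 15 pairs did not pass, among them the inhibitory pair Smad6 and Smad7 (r = 0.354, adjusted permutation p = 0.0721).

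**Figure D3:**
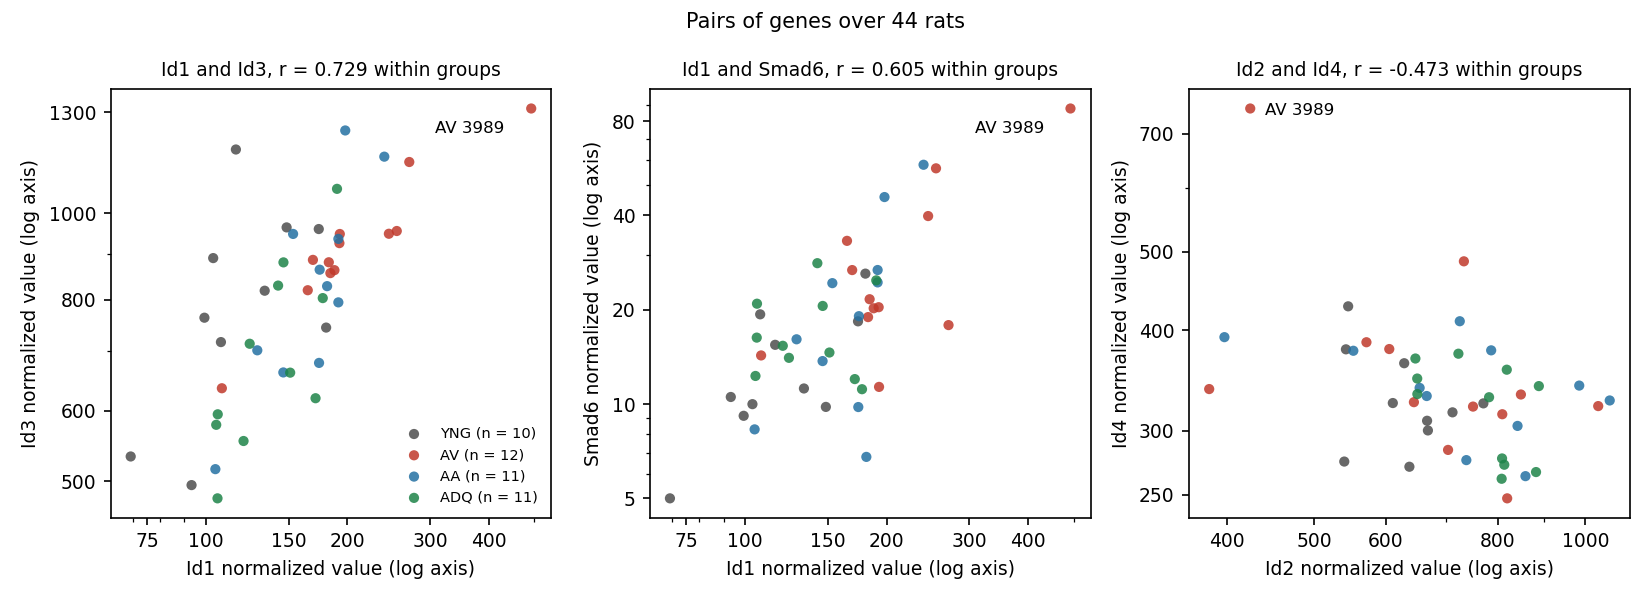
Normalized values (both axes logarithmic) of Id1 and Id3, Id1 and Smad6, and Id2 and Id4 in each of the 44 rats, colored by group. Id1 rises with Id3 and with Smad6, Id4 falls with Id2, and AV rat 3989 lies at the edge of each plot.

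Because Id1 and Id3 were the pair that varied most closely together, the sequence upstream of each is shown, from 250 to 41 bases before the gene start in RefSeq's GRCr8 annotation, both on the plus strand, at chr3:161671314-161671523 for Id1 and chr5:153656041-153656250 for Id3. Capitals mark matches of TATAA on either strand, the core of a TATA box, which places the start of transcription.
Id1: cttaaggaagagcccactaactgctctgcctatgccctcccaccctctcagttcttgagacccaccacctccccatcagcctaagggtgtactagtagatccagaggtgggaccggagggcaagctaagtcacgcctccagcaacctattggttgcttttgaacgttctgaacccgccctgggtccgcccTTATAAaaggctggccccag
Id3: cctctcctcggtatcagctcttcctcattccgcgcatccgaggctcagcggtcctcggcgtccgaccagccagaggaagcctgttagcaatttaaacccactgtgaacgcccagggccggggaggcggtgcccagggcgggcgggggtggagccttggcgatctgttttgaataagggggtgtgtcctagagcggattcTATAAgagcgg
TATAA began 60 and 59 bases before the start of Id1, as overlapping matches on opposite strands, and 51 bases before that of Id3. It occurred in 20.3% of the 33469 RefSeq entries searched over the same window. Of the 6 members, 5 had an entry, all but Smad6. The SMAD box CAGAC was in none of these 5 windows and in 37.8% of all entries, the GC-rich element GGCGCC was in Smad7 alone of the 5 and in 7.0% of all, and the E-box CANNTG was in Id2 alone of the 5 and in 59.5% of all, each searched on both strands. These are matches of letters in a short window and say nothing of binding.

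The genes whose levels followed each member most closely over the 44 rats, of 13703 genes with a mean of at least 20, differed between members. For Id1 they were Vwa1, a matrix protein of vessels and nerves (r = 0.752, or 0.656 without rat 3989), Angptl4, a secreted lipase inhibitor (r = 0.742, or 0.661), and Capg, an actin-capping protein of macrophages (r = 0.737, or 0.675). For Id3 they were Cd81, a tetraspanin (r = 0.774), Hopx, a homeodomain protein of quiescent stem cells (r = 0.745), and Rhog, a small GTPase (r = 0.735). For Smad6 they were Foxc1, a forkhead factor of pericytes and meninges (r = 0.729), the intermediate filament Vim (r = 0.693) and Rasgrp2 (r = 0.685). Id2 was followed by Plagl2 (r = 0.801), Ccn4 (r = 0.758) and Ttll12 (r = 0.731), Id4 by Zfp260 (r = 0.817), Abracl (r = 0.799) and Phactr3 (r = 0.790), and Smad7 by Mmab (r = 0.797), Mafk (r = 0.780) and Arsg (r = 0.778). No gene stood in the nearest 3 of more than 1 member. The points share libraries and their scaling, and these r values are descriptions.

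The rest of the pathway was read from 9 lists of ligands, receptors, SMADs, inhibitors, targets and partners, 104 names of which 99 were listed and 94 tested. AV rats had 19 of the 94 higher and 7 lower than YNG rats, with 6 of the higher ones past adjustment and a median difference of 0.07. Of all tested genes, 10.6% were higher, 10.7% lower and 1.81% higher past adjustment. Without rat 3989 the list genes were 16 higher and 6 lower, and 4 passed adjustment. In ADQ against AV, 14 were lower and 0 higher, with a median of -0.10, where 5.9% of all tested genes were lower. Without rat 3989 this count was 9, at 9.57% of the lists beside 4.14% of all tested genes. In AA against AV, 3 (3.19%) were lower, a share like the 3.1% of all tested genes, and without AA rat 4107 the count was 9 (9.57%), where 3.62% of all tested genes were lower.

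Receptors of the vascular BMP branch led the age difference. Acvrl1, the type I receptor ALK1 of endothelial cells, averaged 109 for YNG, 228 for AV, 158 for AA and 146 for ADQ, with AV above YNG by 0.99 (SE 0.198; limma, adjusted p = 0.00346) and ADQ below AV by -0.50 (limma, p = 0.0135). Eng, the co-receptor endoglin, averaged 374, 583, 439 and 419.6 in the same order, with AV above YNG by 0.66 (SE 0.159; limma, adjusted p = 0.016), ADQ below AV by -0.42 (limma, p = 0.00967) and AA below AV by -0.36 (limma, p = 0.0254; -0.25 and p = 0.0774 without rat 3989). The study picked out Acvrl1 and Eng as well. Lrrc32, which displays latent TGF-beta on the cell surface, averaged 25.8, 62.5, 42.6 and 40.1, with AV above YNG by 1.19 (SE 0.260; limma, adjusted p = 0.00734) and ADQ below AV by -0.55 (limma, p = 0.034), or -0.45 without rat 3989 (limma, p = 0.0787). The co-receptor Tgfbr3 was higher in AV than in YNG by 0.43 (limma, adjusted p = 0.0284; 0.0545 without rat 3989), and the type I receptors Acvr1 (0.34; limma, p = 0.019) and Acvr1b (0.17; limma, p = 0.00891) rose less. Acvr1 and Tgfbr3 were also higher in ADQ than in YNG, by 0.58 (limma, adjusted p = 0.0195) and 0.40 (limma, adjusted p = 0.0313). In all, 3 of 7 type I receptors and 5 of 9 type II receptors and co-receptors were higher in AV, and 0 of either list were lower, where 10.6% of all tested genes were higher and 10.7% lower. In ADQ against AV, 3 of these 9 co-receptors and type II receptors were lower, or 1 of 9 without rat 3989.

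Counts of ligands and extracellular inhibitors lay near the shares of all tested genes (10.6% higher and 10.7% lower in AV against YNG, 5.9% lower in ADQ against AV), so they are given as values only. Tgfb1, also named by the study, averaged 211 for YNG, 279.8 for AV, 198 for AA and 192 for ADQ, higher in AV than in YNG by 0.41 (SE 0.178; limma, p = 0.0248; 0.35 and p = 0.0516 without rat 3989) and lower than AV in AA (-0.49; limma, p = 0.0066) and in ADQ (-0.53; limma, p = 0.00389). Tgfb3 was lower in AV than in YNG (-0.29; limma, p = 0.0102). No BMP ligand was higher in AV than in YNG, and Gdf11 was lower (-0.15; limma, p = 0.033), while Bmp6 was lower in ADQ than in AV (-0.19; limma, p = 0.0177). Of 13 extracellular inhibitors, the activin trap Fst (-0.99; limma, p = 0.00266) and the BMP trap Nog (-0.30; limma, p = 0.0365) were lower in AV than in YNG and Twsg1 was higher (0.17; limma, p = 0.0306). Fst was also lower than YNG in AA (-1.25; limma, adjusted p = 0.0317), an adjusted call lost without AA rat 4107. In ADQ against YNG it missed the threshold (-0.63; limma, p = 0.0527). Fstl3, a relative of Fst, was lower in ADQ than in AV (-0.76; limma, p = 0.0314). Without rat 3989 the calls of Nog (-0.27; limma, p = 0.058), Twsg1 (0.14; limma, p = 0.0684) and Fstl3 (-0.64; limma, p = 0.0677) were lost.

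Counts of components inside the cell lay near the same shares, so they are given as values only. Of 6 receptor-regulated and common SMADs, Smad1, which carries the BMP signal, was higher in AV than in YNG (0.27; limma, p = 0.0212), and 0 differed between ADQ and AV. Of 11 intracellular inhibitors and ligases, Smurf1 was higher (0.25; limma, p = 0.0168) and Pmepa1 lower (-0.42; limma, p = 0.00947) in AV than in YNG. Smurf1 was also higher than YNG in AA (0.30; limma, p = 0.00456) and ADQ (0.22; limma, p = 0.0381). Pmepa1 was also lower than YNG in AA (-0.58; limma, adjusted p = 0.0406) and ADQ (-0.71; limma, adjusted p = 0.0145). Its adjusted call in AA was lost without AA rat 4107. The corepressor Tgif2 was lower than AV in both ADQ (-0.42; limma, p = 0.00315) and AA (-0.37; limma, p = 0.00908). Among 12 E proteins and partners, which Id proteins bind or oppose, Tcf4 (-0.30; limma, p = 0.0186) and Hes5 (-0.38; limma, p = 0.038) were lower in AV than in YNG and 0 differed between ADQ and AV. The call of Hes5 was lost without rat 3989 (-0.28; limma, p = 0.104). Tcf4 was also lower than YNG in AA (-0.47; limma, adjusted p = 0.0351) and ADQ (-0.39; limma, adjusted p = 0.045).

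Of 20 other SMAD target genes, AV had 7 higher and 0 lower than YNG, with a median of 0.16, and 6 were lower and 0 higher in ADQ than in AV, with a median of -0.20. Of all tested genes, 10.6% were higher in the first comparison and 5.9% lower in the second. Without rat 3989 the counts were 6 higher and 1 lower, then 4 lower. Ccn2, a matricellular protein formerly called Ctgf, averaged 151 for YNG, 338 for AV, 283 for AA and 239 for ADQ, with AV above YNG by 1.0 (limma, adjusted p = 0.0123). Col4a1, a collagen of basement membranes, averaged 466.1, 902, 644 and 677 in the same order, with AV above YNG by 0.79 (limma, adjusted p = 0.0408; 0.0786 without rat 3989). Angptl4, the gene close to Id1 over rats, was higher in AV than in YNG by 0.44 (limma, p = 0.00562) and lower in ADQ than in AV by -0.55 (limma, p = 0.000528). Atoh8, a helix-loop-helix factor induced by BMP, was lower in ADQ than in AV by -0.46 (limma, p = 0.000401, adjusted p = 0.185).

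**Figure D4:**
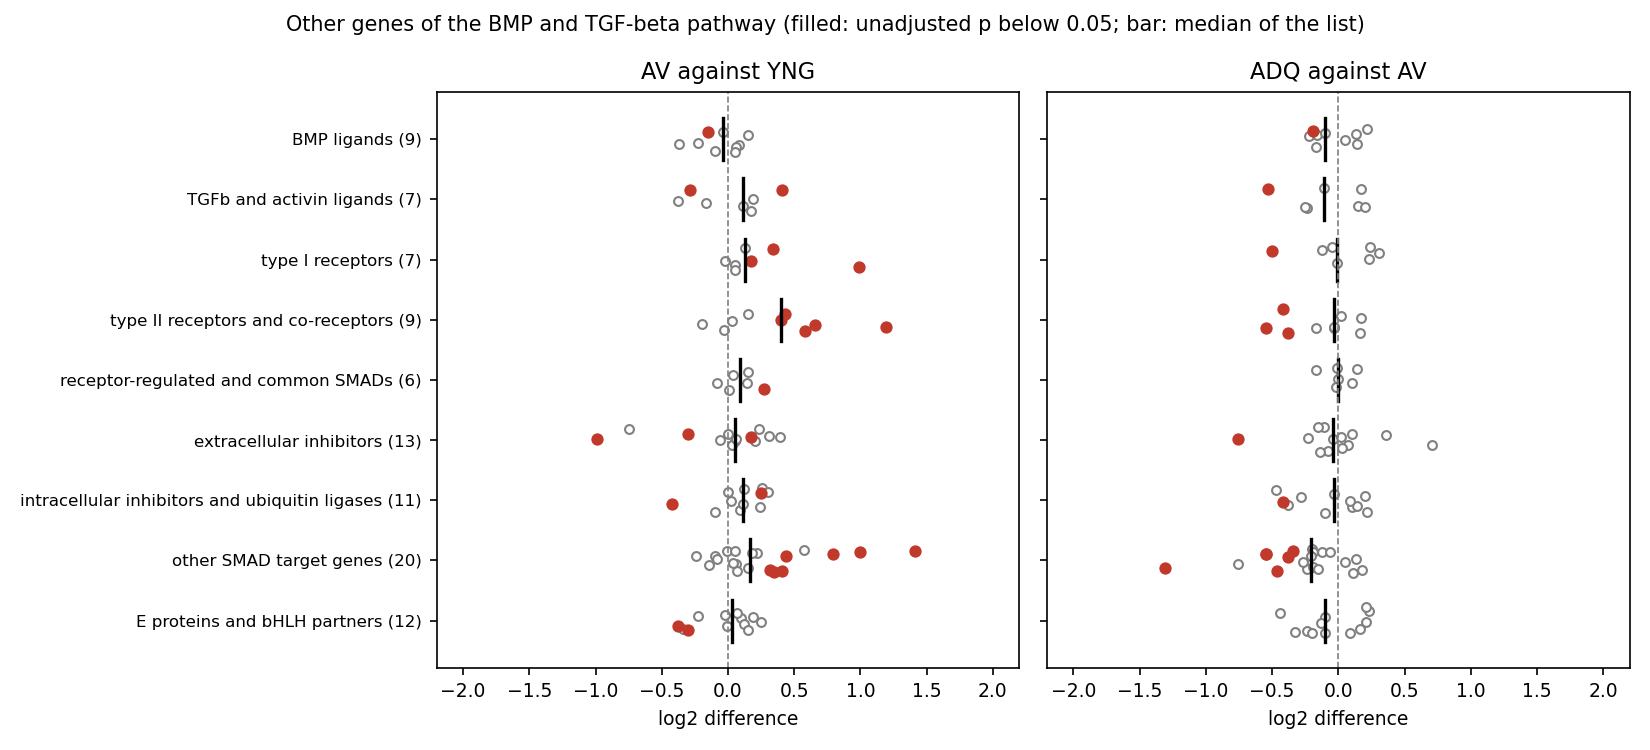
Log2 difference (x axis) of each tested gene of the 9 pathway lists (y axis); points are genes, filled at an unadjusted p below 0.05, and bars are list medians. In AV against YNG, 3 of 7 type I receptors, 5 of 9 type II receptors and co-receptors and 7 of 20 target genes are filled to the right, with other genes of these lists on either side of 0, and 14 genes are filled to the left and 0 to the right in ADQ against AV.

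Markers of several other cell types were called in the comparisons in which Id1 and Smad6 were. Of all tested genes, 10.6% were higher in AV than in YNG and 5.9% lower in ADQ than in AV, and a few calls in a list of about 10 genes lie near those shares. All 11 endothelial markers tested were higher in AV than in YNG and 8 of 11 were lower in ADQ than in AV by limma (Pecam1 was not listed), or 11 and 6 without rat 3989. The summed endothelial level averaged (± SD) 4530 ± 1442 for YNG, 7700.5 ± 3552 for AV, 5713 ± 820.1 for AA and 5162.5 ± 443 for ADQ, from 2941 in rat V5 to 17018 in rat 3989, and Slc2a1 was its most abundant gene (mean 1899.7). The list score differed by 0.75 in AV against YNG (permutation p = 0.00266, adjusted over 90 tests 0.0798) and by -0.48 in ADQ against AV (permutation p = 0.00798, adjusted 0.144). Cldn5, a tight junction gene that the study also named, averaged 989, 1545, 1093 and 928 in YNG, AV, AA and ADQ. Microglia markers, led by Csf1r (mean 2055), were higher at 4 of 9 genes in AV against YNG and lower at 7 of 9 in ADQ against AV, with score differences of 0.24 (adjusted permutation p = 0.252) and -0.32 (adjusted permutation p = 0.0558). Oligodendrocyte markers, led by Mbp, were higher at 7 of 8 and lower at 5 of 8, or 5 and 1 without rat 3989. Astrocyte markers, led by Gfap (mean 24268), were higher at 3 of 11 and lower at 2 of 11, or 2 and 1 without rat 3989, and pericyte markers, led by Pdgfrb (mean 489), were higher at 2 of 10 and lower at 2 of 10. Of the granule cell markers, 2 of 8 were lower in AV than in YNG and 0 of 8 differed between ADQ and AV. Neural stem and progenitor markers were higher at 3 of 9 and lower at 4 of 9 in AV against YNG. Of all tested genes 10.7% were lower there, and 3 of the 4 lower markers passed adjustment. Without rat 3989 they were 3 higher and 3 lower, with 2 past adjustment. In ADQ against AV, 1 of 9 was higher and 0 lower, where 3.42% of all tested genes were higher. Of the 4 T and NK cell markers tested, the most abundant, Cd3e (mean 54.8), gave no call in any comparison. The others, Cd8a, Nkg7 and Prf1, passed the minimum of 5 only through the AV rats, so their calls are not counted. Named after its values were seen, Prf1, the perforin of cytotoxic lymphocytes, averaged 1.74 for YNG, 98.9 for AV, 1.42 for AA and 1.74 for ADQ. No test is drawn from these values. The summed T and NK level (± SD) was 53.3 ± 40.4 for YNG, 219.6 ± 240.7 for AV, 62.5 ± 47.2 for AA and 43.8 ± 35.7 for ADQ, and Gzmb and Klrd1 were under the minimum. All 4 red blood cell genes, led by Hbb (mean 5158), were lower in ADQ than in AV, and 0 of 4 without rat 3989. Of the immediate early genes, Junb (-0.34; limma, p = 0.0289), Ier2 (-0.52; limma, p = 0.00791) and Dusp1 (-0.47; limma, p = 0.0319) were lower in ADQ than in AV. The others of that list gave no call there. In AA against YNG, where Id1 was also called, 7 of 11 endothelial and 3 of 8 oligodendrocyte markers were higher. Without AA rat 4107 these were 6 and 1, and 12.6% of all tested genes were higher over all rats. No list score passed adjustment as a mean over genes. As list medians, the endothelial (-0.63) and microglia (-0.30) scores in ADQ against AV did (adjusted permutation p = 0.0378 for each). So did the stem and progenitor median in AV against YNG (0.48; adjusted permutation p = 0.0144), whose mean score had the opposite sign (-0.17).

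Over the 44 rats, with group means subtracted, Id1 correlated with the microglia score at r = 0.672 (0.589 without rat 3989). It correlated with astrocytes at 0.593 (0.493), with endothelial cells at 0.583 (0.435) and with red blood cells at 0.553 (0.439). The T and NK score is left out here, since its genes Cd8a, Nkg7 and Prf1 passed the minimum only through the AV rats. Id3 correlated with microglia at 0.668, with CA1 pyramidal cells at 0.575 (0.547), with astrocytes at 0.567 and with immediate early genes at 0.551 (0.560). Id1 correlated with CA1 pyramidal cells at 0.501 (0.448). Smad6 went with the meningeal (0.581, or 0.514 without rat 3989), pericyte (0.569, or 0.487) and endothelial (0.545, or 0.438) scores. Smad7 went with the endothelial score (0.516, or 0.332 without rat 3989) and against the granule cell score (-0.526), whereas Id2 went with granule cells (0.598). By rank these were weaker, with Spearman rho of 0.351 and -0.267 for Smad7 and 0.359 for Id2. For Id1, rho was 0.637 with microglia, 0.458 with astrocytes, 0.399 with endothelial cells and 0.453 with red blood cells. For Smad6 it was 0.531 with the meningeal, 0.450 with the pericyte and 0.464 with the endothelial score. These are descriptions over libraries that share dissection and depth, and the part of cell makeup in the differences of Id1, Id3, Smad6 and Smad7 was not tested.

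**Figure D5:**
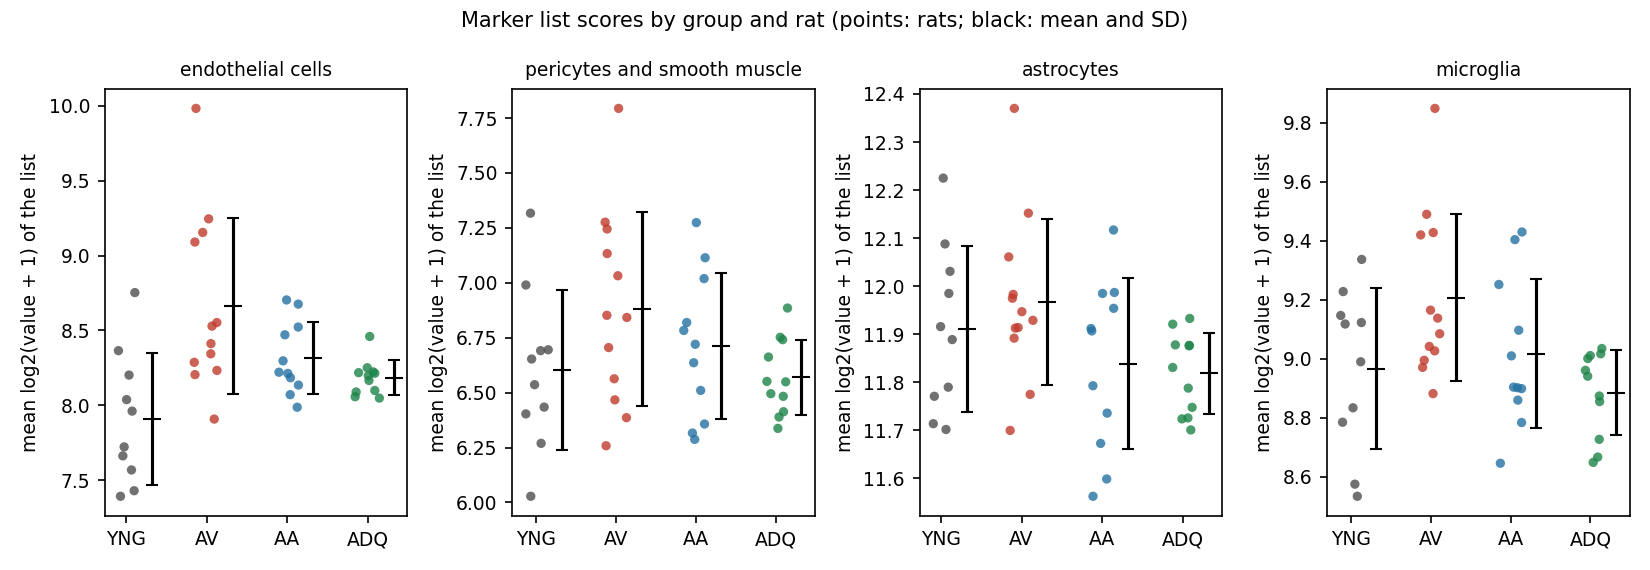
Marker list score (y axis, mean of log2(value + 1) over the genes of a list) in each rat by group (x axis), with black marks for the mean and SD. The endothelial score lies 0.75 higher in AV than in YNG and 0.48 lower in ADQ than in AV.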

How the data were processed

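Poly(A) RNA-seq libraries of the dentate gyrus of 44 rats, 1 library per rat and 1 hemisphere each, were read on an Ion Torrent sequencer. Per the labels and the study's methods, the authors aligned reads with STAR 2.5.3a to rn6, counted them in Partek and scaled the counts by DESeq2's median ratio. The deposited signal values are these normalized counts. Treatment was taken from the deposited sample attributes by rat name, since the labels give age only. Total normalized values were 14297964 to 20579982 per library (median 15562449). Low values were whole multiples of 1 read for 53.1 to 56.9% of rows and 78.9 to 84.2% of genes with 1 row (tolerance 0.05 reads), so reads are estimates and no count model was used.

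Rows were summed per gene identifier, and limma 3.58.1 (R 4.3.3; trended empirical Bayes, two-sided) was fitted to log2(value + 1) in 1 fit over 4 groups and the 15598 genes with a mean of at least 5. The fit was tested on simulated data. Correlations used group-centred values and 100000 permutations within groups, and marker scores 100000 permutations between groups. Named genes are the 6 members, up to 3 genes per pathway list with the smallest p among those called, the genes Tgfb1, Eng, Acvrl1 and Cldn5, the 3 genes most alike to each member, and for each marker list its most abundant gene; an item that this rule names is not reported here. The members and lists were chosen with earlier results of these data known. The alternatives were other pseudocounts, filters and scalings, array weights, series and library total as terms, each series alone, and each rat left out. List counts without rats 3989 and 4107 were added after seeing the data.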

Additional observations from a re-analysis of the deposited data

Results flagged for a closer look

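The ADQ against AV difference of Smad7 differed between the rat series. It was -0.51 in series a (5 ADQ and 6 AV rats; limma, p = 0.00647) and 0.13 in series b (6 and 6 rats; limma, p = 0.425), and series b minus series a was 0.64 (SE 0.235; limma interaction, p = 0.00934, adjusted p = 0.961 over all tested genes). None of the other 35 interactions of the 6 genes had an unadjusted p below 0.05. AA against AV for Smad7 came nearest (0.47; limma, p = 0.0506), and it shares the AV rats.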

How the results depend on the processing

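Id1 in AV against YNG and in ADQ against AV kept its direction and call under every alternative run, and no call changed under other pseudocounts, filters, upper-quartile scaling, robust fitting or a series term. Id1 in AA against ADQ (0.287) passed with the groups compared alone (limma, p = 0.0396) and by permutation (p = 0.0491). With the library total as a term, Id2 in AV against YNG (-0.054) and Id4 in ADQ against YNG (0.088) reversed, Id3 in AV against YNG (0.344), Smad6 in AA against YNG (0.781) and Id1 in ADQ against YNG (0.399) passed, and Smad7 in AA (0.263) and ADQ (0.214) against YNG, Id2 in ADQ against YNG (0.084) and Smad6 in ADQ against AV (-0.562) did not. Genes called against YNG were then 1809 in AV, 1202 in AA and 1161 in ADQ, where the reported fit gave 3326, 4153 and 4386.

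In series a alone, Smad7 in AA against YNG (0.265), Id1 in AA against YNG (0.428), Id2 (0.22) and Smad7 (0.121) in ADQ against YNG, and Smad6 (-0.558) and Id3 (-0.224) in ADQ against AV lost the call. Smad7 passed in AA against AV (-0.370) and ADQ against AV (-0.514), Id4 in ADQ against YNG (0.072), Id2 in AA against ADQ (0.047) and Smad6 in AA against ADQ (-0.206) reversed, and calls were 5212 in AV against YNG and 885 in ADQ against AV. In series b alone, Smad6 (0.485) and Smad7 (0.297) in AV against YNG and Smad6 in ADQ against AV (-0.620) lost the call. Id3 passed in AV against YNG (0.431) and AA against ADQ (0.343). Id4 in AV (-0.019) and AA (-0.022) against YNG, Smad6 in ADQ against YNG (-0.136), and Smad7 in AA against AV (0.103), ADQ against AV (0.126) and AA against ADQ (-0.023) reversed, and calls against YNG were 984, 1928 and 1077. Each series holds fewer rats. With array weights, Id2 in AV (0.212) and AA (0.236) and Id3 in ADQ (-0.305) against YNG passed, Id4 (-0.034) and Id3 (-0.089) in AA against YNG and Smad7 in AA against ADQ (-0.013) reversed, and calls were 7694, 7068 and 8101 against YNG and 1584 in AA against ADQ. The cause was not tested.

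Among correlations, Id3 with Id4 (0.342 with series subtracted, 0.246 without the farthest rats) and Id4 with Smad6 (0.416 with series subtracted) lost the call, and Id4 with Smad7 reversed (-0.007 without the farthest rats). As list medians, the stem cell (0.480) and CA1 (-0.120) scores in AV against YNG reversed from -0.17 and 0.12. The reversed stem cell score passed (adjusted permutation p = 0.0144). The endothelial (-0.633) and microglia (-0.297) scores in ADQ against AV also passed, both at an adjusted permutation p of 0.0378.

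With each rat left out in turn, Id2 in ADQ against YNG (0.260 to 0.317) lost the call without V4, V9, V11, V12, 3994, 4004, 4005, 4031, 4074 or 4105. Smad6 in ADQ against AV (-0.716 to -0.457) lost it without 3890, 3989, 4009, 4567, 4568, 4006, 4031, 4032, 4074, 4105, 4106 or 4110, and Smad7 in ADQ against YNG (0.224 to 0.304) without V2, V4, V9, V12, 4004, 4032, 4105, 4106 or 4110. Without 4107, 4069, 4004, 4005, 3988, 3984, 4070, 4011, 3989, V2, V11 or V12, a call or sign also changed for Id1 in AA against ADQ (0.235 to 0.354) and AA against AV (-0.383 to -0.185), Id2 in AA against ADQ (-0.126 to 0.016) and AA against YNG (0.158 to 0.30), Id3 in AA against ADQ (0.197 to 0.323) and AV against YNG (0.158 to 0.297), Id4 in AA against AV (-0.137 to 0.008) and ADQ against YNG (-0.064 to 0.009), Smad6 in AA against AV (-0.591 to -0.278) and AA against YNG (0.420 to 0.713), and Smad7 in AA against ADQ (-0.005 to 0.090). Calls ran from 471 to 1074 in AA against ADQ (without rats 4107 and 4004) and from 458 to 1055 in AA against AV (without rats 3989 and 3985). No paired analysis was possible because the libraries carry rat names and no replicate numbers shared between groups. Smad6 had a median of 18 estimated reads, the lowest of the 6 genes, and whether depth limits its comparisons was not tested.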
